A study of Homo sapiens with 6 samples.

Results

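The mRNAs of the proteasome were followed in RNA immunoprecipitates of 2 cytoplasmic poly(A)-binding proteins, PABPC4 and PABPC1, in HepG2 cells, an established line from a human hepatocellular carcinoma. The genes were chosen by symbol, as all entries of both deposited tables named PSM followed by a letter from A to G and a number, without antisense transcripts and pseudogenes. This gave 48 genes of 58302, of which 46 had at least 1 read in any library. The 48 code for the catalytic core, the regulatory particle, activators, an inhibitor and assembly chaperones.

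The proteasome is the protease that degrades ubiquitin-tagged proteins in the cytoplasm and nucleus. Its core particle is a barrel of stacked rings: the outer alpha rings gate the entry and the inner beta rings carry the proteolytic sites. The regulatory particle caps the barrel, binds ubiquitin chains, removes them and unfolds the substrate with a ring of ATPases. Poly(A)-binding proteins coat the tail of most cytoplasmic mRNAs and act in their translation and stability. Transcription of the proteasome subunits is raised together by NFE2L1 when proteasome activity falls.

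Of the 6 libraries, per the labels, 2 came from an immunoprecipitation of PABPC4 in PABPC4-overexpressing HepG2 cells and 2 from one of PABPC1 in PABPC1-overexpressing HepG2 cells. The control was rabbit IgG, with 1 library from each of these overexpressing cell populations, so every library came from cells with 1 of the 2 proteins raised and none from unmodified cells was analysed here. Antibody and overexpressed protein therefore cannot be told apart in PABPC4 against PABPC1. Nothing in the labels says whether duplicates came from separate cultures, so p-values over libraries measure only the spread between these libraries.

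The tables analysed here hold folds and p-values against IgG, and whole reads per library were worked back from them. Both tables used the same 2 IgG libraries, so the comparisons of PABPC4 and of PABPC1 with IgG share their controls. No input RNA was analysed here, so more of an mRNA in the cells and more of it bound cannot be told apart. Libraries are called A and B within an antibody, because the replicate numbers of the labels could not be assigned to them. Totals were 850190 and 841327 reads for PABPC4, 289217 and 277552 for PABPC1, and 133030 and 94235 for IgG. Reads outside the genes that could be split by library include those of the mitochondrial rRNAs MT-RNR1 and MT-RNR2, and of MALAT1 and RN7SL2. How they divide among these RNAs was not recovered. Such reads made up 18.0% and 18.9% of PABPC4 libraries, 42.4% and 36.9% of PABPC1 libraries, and 57.9% and 55.8% of IgG libraries. Levels below are reads per 1000000 library reads (RPM), which carry this difference. Where named, nuclear totals leave out mitochondrially encoded genes and 2 abundant RNAs, MALAT1 and RN7SL2, whose reads could not be recovered.

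Of the 14 hepatocyte markers, all had reads, and their sum was 10105 and 10760 RPM with PABPC4, 7403 and 8225 RPM with PABPC1, and 4728 and 4743 RPM with IgG. The sum of the 12 blood and erythrocyte markers went the other way. It was 807 and 655 RPM with PABPC4, 1431 and 1546 RPM with PABPC1, and 3864 and 4001 RPM with IgG. HBB alone held 503 of the 891 IgG reads of this list. For 2 of the 12, CD74 and LYZ, the RIPs were not below IgG on library totals. CD74 had ratios over IgG of 1.09 for PABPC4 and 1.15 for PABPC1, and LYZ of 1.00 and 1.14. On nuclear totals the hepatocyte sum gave ratios over IgG of 1.12 for PABPC4 and 1.17 for PABPC1. The blood and erythrocyte sum gave 0.0948 and 0.269. In the authors' deposited table for PABPC4 over IgG, 9 of the 14 hepatocyte markers were called higher. The share was 5.54% of all genes and 13.5% of genes with at least 20 summed reads. Of the 12 blood and erythrocyte markers, 9 were called lower, against 0.9% of all genes. In the authors' deposited table for PABPC1 over IgG, 2 of the 14 hepatocyte markers were called higher. The share was 1.34% of all genes and 5.19% of genes with at least 20 summed reads. Of the 12 blood and erythrocyte markers, 5 were called lower, against 0.194% of all genes. The 7 fibroblast markers summed to 30.6 and 17.8 RPM with PABPC4, 55.3 and 46.8 RPM with PABPC1, and 218.0 and 212.2 RPM with IgG, with all 7 present. Their part in the proteasome values was not tested.

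The 5 genes called in the deposited tables or in the direct comparison of the 2 antibodies were PSMA7, PSMB2, PSMC3, PSMD7 and PSME1, and 4 of them have a transcript start in the RefSeq promoter table (build GRCh38.p14). These starts are shown because a run of pyrimidines at the very start is the known mark of mRNAs for the translation machinery. Each line gives 10 bases before the start and 20 from it on, in the sense of the gene, with the first 5 transcribed bases in capitals. The windows of PSMD7 (chr16:74296804-74296833) and PSME1 (chr14:24136184-24136213) lie on the plus strand, those of PSMB2 (chr1:35641507-35641536) and PSMC3 (chr11:47426420-47426449) on the minus strand. PSMA7, without a window, spans chr20:62136733-62143394 in RefSeq.
PSMD7: ctgacgaaccGGAAGaagaggaactgggcc
PSME1: cgagcgccctACCGCtttcgctttcccttc
PSMB2: gcgtcgcgccAATCTtcgctctgaggtgct
PSMC3: tcggagaggcAGATTcgctgctccgcagca
None of the 4 starts with C followed by 4 bases that are C or T, read on the sense strand only. Of the 48 genes, 42 matched a window of the table, and 0 of the 42 starts had such a run, against 4.04% of all 27305 windows and 5.22% of the 11273 windows of genes with a PABPC4 read. Among cytosolic ribosomal protein genes, 39 of 64 windows had it. A match or its lack describes only these annotated letters.

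As a group, the 48 mRNAs held a nearly constant share of nuclear-encoded reads in all 6 libraries. In reads per 1000000 nuclear reads they summed to 2617 and 2586 with PABPC4, 2700 and 2469 with PABPC1, and 2624 and 2506 with IgG. The 3 pairs of libraries overlapped. Summed reads gave a PABPC4 over IgG ratio of 1.02 (exact 95% counting interval 0.890 to 1.17) and a PABPC1 over IgG ratio of 1.01 (0.871 to 1.17) on nuclear totals. On library totals the same reads came to 2063 and 2003 RPM with PABPC4, 1438 and 1452 RPM with PABPC1, and 1015 and 1019 RPM with IgG, in 3 separate pairs. The ratios were then 2.0 (1.75 to 2.30) for PABPC4 over IgG and 1.42 (1.23 to 1.65) for PABPC1 over IgG. Intervals here and below are exact and cover counting error only, not the spread between libraries.

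The median gene showed the same dependence on the totals. Of the genes with an IgG read, a RIP read and at least 20 summed reads, the median log2 ratio of PABPC4 over IgG was 0.99 for 35 proteasome genes and 0.97 for all 8328 genes on library totals. On nuclear totals it was 0.02 for the proteasome genes and -0.00 for all genes. For PABPC1 over IgG it was 0.42 for 23 proteasome genes and 0.57 for all 4491 genes on library totals, and -0.08 for the proteasome genes and 0.07 for all genes on nuclear totals. Nuclear totals thus shifted every gene by -0.98 (log2) in the PABPC4 comparison and by -0.50 in the PABPC1 comparison.

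**Figure D1:**
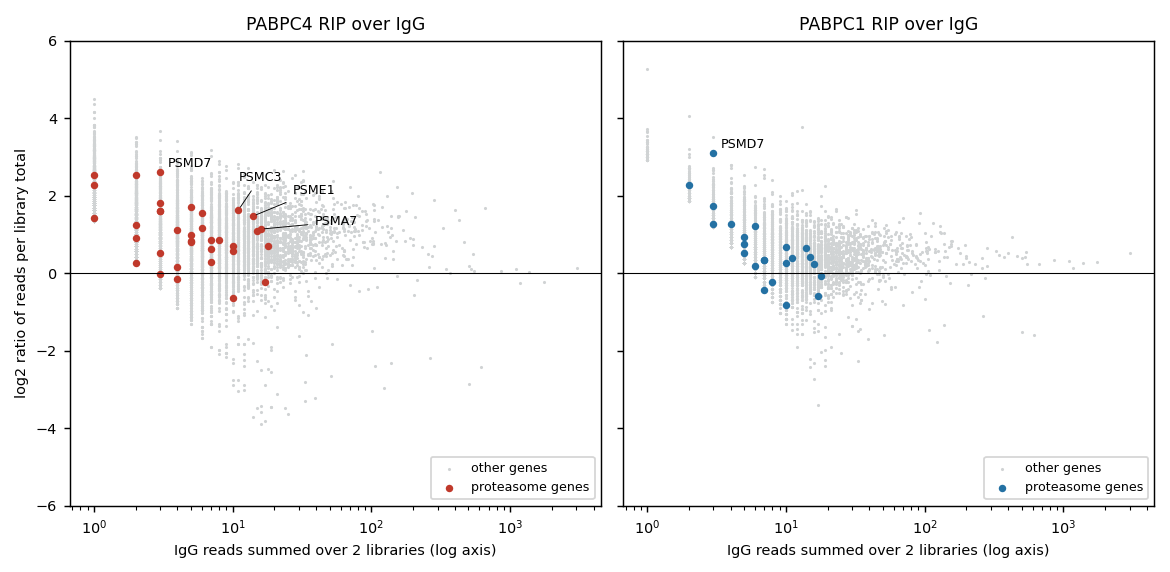
Each point is a gene with at least 1 read in IgG and in the RIP and at least 20 summed reads in the comparison; the x axis is the IgG reads summed over 2 libraries (log axis) and the y axis the log2 ratio of reads per library total, PABPC4 over IgG on the left and PABPC1 over IgG on the right. Proteasome genes (coloured) lie within the cloud of other genes (grey) and have at most 18 IgG reads; those called in the authors' deposited table are named.

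Few reads limited which ratios could be called. Over all 48 genes the median was 56 reads with PABPC4, 13.5 with PABPC1 and 3 with IgG, summed over 2 libraries each. With IgG, 7 of the 48 genes had 0 reads and 26 had at most 3. A gene with 3 IgG reads needed a ratio of 5.11 to be called in the PABPC4 table and 6.28 in the PABPC1 table. With 10 IgG reads the smallest callable ratios were 2.61 and 3.05, for PABPC4 and for PABPC1. Smaller differences from IgG at these read counts were not detectable at this depth.

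In the authors' deposited table for PABPC4 over IgG, 4 of 46 proteasome genes with a p-value were called higher (adjusted p under 0.05) and 0 lower. They were PSMA7, PSMC3, PSMD7 and PSME1, from 4 different parts of the complex. Of all 21455 genes with a p-value, 5.54% were called higher and 0.9% lower in that table. Of genes with at least 20 summed reads, 13.5% were called higher, and 4 of 35 proteasome genes. The proteasome share was near the background in both counts. In the authors' deposited table for PABPC1 over IgG, 1 of 45 proteasome genes, PSMD7, was called higher and 0 lower, against 1.34% of all 17565 genes higher and 0.194% lower. Among genes with at least 20 summed reads, 1 of 23 proteasome genes was called, against 5.19% of all genes.

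The deposited p-values equal a chi-square test on reads summed over libraries, which leaves out the spread between libraries. With limma voom over the libraries, a test added after seeing the data and scaled to the median gene, 0 of 33 proteasome genes were higher in PABPC4 than in IgG (1.68% of 7986 genes), with 1 at an unadjusted p under 0.05. In the same fit 2 of 33 were lower (2.17% of all genes). They were PSMA5, of the alpha ring, at -1.68 (log2, limma adjusted p = 0.0485), and PSMD3, of the regulatory particle, at -1.24 (limma adjusted p = 0.0378). For PABPC1 over IgG the voom fit called 0 of 33 higher (0.351% of all genes) and 0 lower (0.501%). At an unadjusted p under 0.05 there were 2 in each direction. Shares of all genes at the unadjusted cut were not counted for either antibody. On nuclear totals or scaled to the median gene, the chi-square test called 0 proteasome genes in either comparison. Of all 21451 genes these 2 settings called 110 and 157 higher and 450 and 408 lower for PABPC4. Of all 17561 genes they called 26 and 36 higher and 79 and 51 lower for PABPC1.

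**Figure D2:**
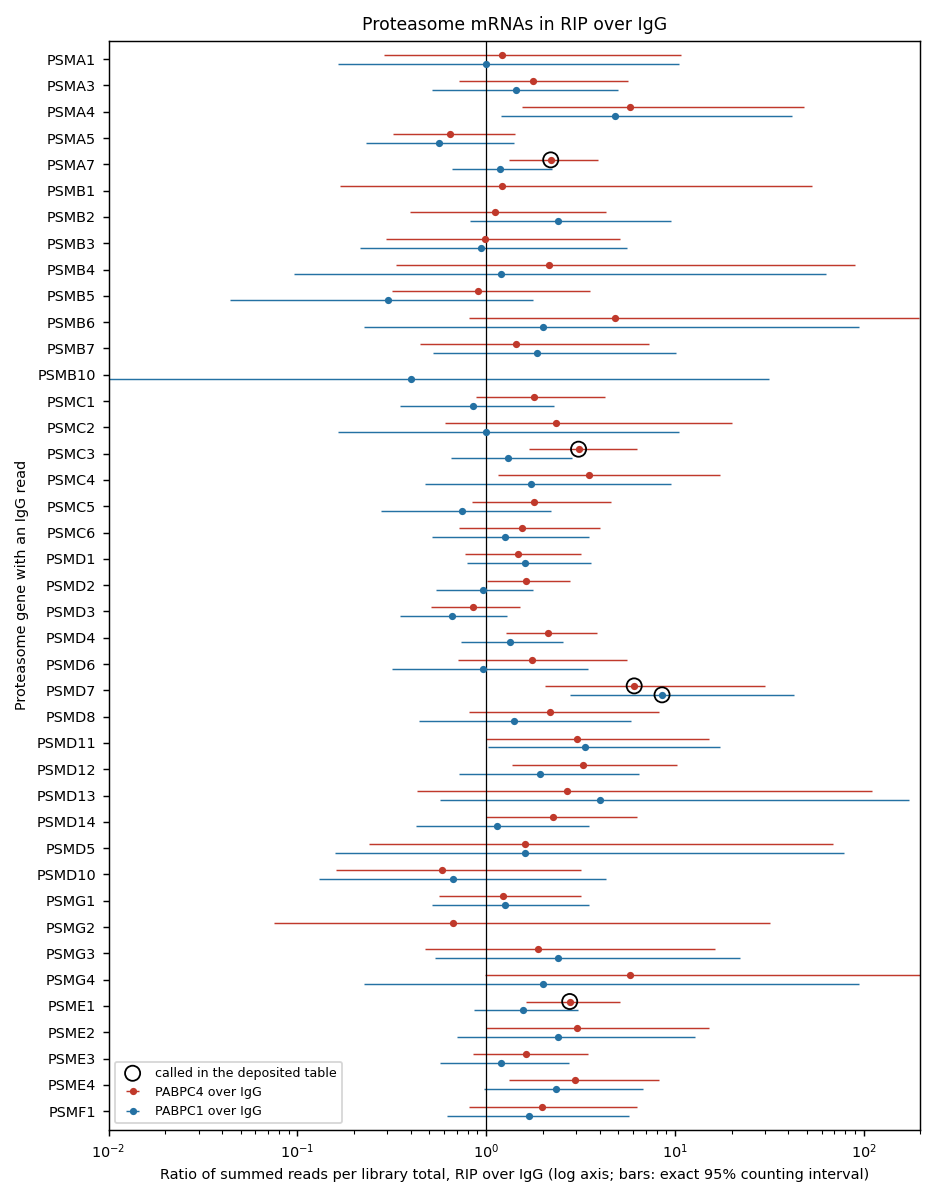
Ratio of summed reads per library total for each proteasome gene with an IgG read, PABPC4 over IgG (red) and PABPC1 over IgG (blue), on a log axis with exact 95% counting intervals as bars (bars that leave the plot are clipped) and circles around genes called in the authors' deposited tables. PSMD7 has the highest PABPC1 ratio of the genes drawn. Bars lie above 1 for 11 of 40 genes with PABPC4 and 3 of 39 with PABPC1, and below 1 for 0. Such bars were not counted over all genes. On these library totals the median of all genes with at least 20 summed reads was itself 1.96 for PABPC4 and 1.48 for PABPC1.

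PSMD7 was the single proteasome gene called against IgG with both antibodies. It encodes RPN8, a lid subunit of the regulatory particle that pairs with the deubiquitinase PSMD14. PSMD7 had 76.4 and 84.4 RPM with PABPC4, 107.2 and 118.9 RPM with PABPC1, and 15.0 and 10.6 RPM with IgG. Both RIPs lay above both IgG libraries, and both PABPC1 libraries above both PABPC4 libraries. These were 65 and 71 reads with PABPC4, 31 and 33 with PABPC1, and 2 and 1 with IgG. Its ratio was 6.09 (2.04 to 29.9) for PABPC4 over IgG, with an adjusted p of 0.0134 in the authors' deposited table. For PABPC1 over IgG its ratio was 8.55 (2.80 to 42.6), with an adjusted p of 0.00328 in the authors' deposited table. Both calls rest on 3 IgG reads. Without IgG library A the ratios were 7.58 for PABPC4 and 10.6 for PABPC1, without IgG library B 5.35 and 7.51, and neither call was kept in either case. On nuclear totals they were 3.10 for PABPC4 over IgG and 6.07 for PABPC1 over IgG, also not called.

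The group's sum moved little without PSMD7. The other 47 genes summed to 2520 and 2477 reads per 1000000 nuclear reads with PABPC4, 2499 and 2267 with PABPC1, and 2585 and 2480 with IgG. The ratio over IgG on nuclear totals was 0.989 (0.865 to 1.14) for PABPC4 and 0.942 (0.811 to 1.10) for PABPC1.

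In the core particle, the alpha ring genes summed to 288 and 301 RPM with PABPC4, 200.5 and 205 RPM with PABPC1, and 143 and 169.8 RPM with IgG. PSMA7, the alpha4 subunit, held 262 of these 498 PABPC4 reads. It had 154 and 156 RPM with PABPC4, 83.0 and 82.9 RPM with PABPC1, and 75.2 and 63.7 RPM with IgG. The 3 pairs did not overlap, and the ratio of PABPC4 over IgG was 2.20 (1.33 to 3.91, adjusted p = 0.0375 in the authors' deposited table). Without IgG library A it was 2.43 and without IgG library B 2.06, and it was not called in either case. On library totals the median of all genes was 1.96 for PABPC4 over IgG, and on nuclear totals PSMA7 stood at 1.12, not called. PABPC1 over IgG was 1.18 (0.656 to 2.23) for PSMA7 on library totals, not called. PSMA4, the alpha3 subunit whose tail helps close the gate, had 54.1 and 47.5 RPM with PABPC4, 48.4 and 36.0 RPM with PABPC1, and 7.52 and 10.6 RPM with IgG. Both RIPs lay above IgG without overlap, but on 2 IgG reads. The ratios were 5.78 (1.55 to 48.5) for PABPC4 and 4.81 (1.20 to 42.0) for PABPC1, neither called in the authors' deposited tables. PSMA5, the alpha5 subunit, had its highest mean with IgG, with 21.2 and 35.7 RPM with PABPC4, 17.3 and 32.4 RPM with PABPC1, and 52.6 and 31.8 RPM with IgG. Its IgG library B overlapped both RIPs, and its ratios on library totals were 0.645 (0.322 to 1.43) for PABPC4 over IgG and 0.561 (0.232 to 1.41) for PABPC1 over IgG. The remaining alpha genes PSMA1, PSMA2, PSMA3 and PSMA6 had at most 66 PABPC4 reads and were not called. PSMA8, the testis form of the alpha4 subunit, had 0 reads in all 6 libraries.

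The 7 constitutive beta ring genes were sparse, at 108.2 and 98.7 RPM in sum with PABPC4, 110.6 and 86.5 RPM with PABPC1, and 105.2 and 31.8 RPM with IgG. PSMB2, the non-catalytic beta4 subunit, had 17.6 and 21.4 RPM with PABPC4, 55.3 and 28.8 RPM with PABPC1, and 30.1 and 0 RPM with IgG. The PABPC1 libraries lay above the PABPC4 libraries, but with 16 reads in A and 8 in B they differed from each other by more than B did from PABPC4. PSMB7, which carries the trypsin-like site, had 18.8 and 19.0 RPM with PABPC4, 20.7 and 28.8 RPM with PABPC1, and 15.0 and 10.6 RPM with IgG. Neither was called against IgG, and ratios of PABPC4 over IgG ran from 0.907 (PSMB5, the chymotrypsin-like site) to 4.84 (PSMB6, the caspase-like site, with 1 IgG read) across the ring.

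Immunoproteasome subunits, which replace the constitutive catalytic subunits under interferon and in leukocytes, had few reads or none. PSMB8 had 3.53 and 4.75 RPM with PABPC4, 10.4 and 7.21 RPM with PABPC1, and 0 in both IgG libraries. These are 7 PABPC4 reads, 5 PABPC1 reads and 0 IgG reads, too few for a call. PSMB9 had 3 reads, all in PABPC4 library A, and PSMB10 had 1 PABPC1 read and 1 IgG read. PSMB11, the thymus-specific subunit, had 0 reads in all libraries. Together the 4 genes had 10 PABPC4 reads, 6 PABPC1 reads and 1 IgG read. The ratio of PABPC4 over IgG of this sum was 1.34 (0.191 to 58.3) on library totals. These reads are too few to be set against the blood markers, and a relation to them was not tested.

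The 6 ATPase genes of the regulatory particle summed to 401 and 365 RPM with PABPC4, 200.5 and 173 RPM with PABPC1, and 158 and 180.4 RPM with IgG. On these library totals PABPC4 lay above both others, while PABPC1 and IgG overlapped, and the PABPC4 over IgG ratio of the sum was 2.29 (1.65 to 3.27). Per 1000000 nuclear reads the sums were 509 and 471 with PABPC4, 376 and 294 with PABPC1, and 408 and 444 with IgG, so that PABPC1 lay below IgG without overlap. The ratio of PABPC4 over IgG was then 1.16 (0.839 to 1.66), and that of PABPC1 over IgG 0.794 (0.543 to 1.18). PSMC3, the RPT5 ATPase whose tail docks into the alpha ring, had 149.4 and 149.8 RPM with PABPC4, 65.7 and 61.2 RPM with PABPC1, and 45.1 and 53.1 RPM with IgG. Its ratio of PABPC4 over IgG was 3.09 (1.70 to 6.27, adjusted p = 0.00412 in the authors' deposited table). On nuclear totals this ratio was 1.57, not called. PABPC1 over IgG was 1.31 (0.654 to 2.86) on library totals, not called. The PABPC4 call was lost without IgG library A (2.82) or B (3.32). PSMC1, the RPT2 ATPase, had 67.0 and 59.4 RPM with PABPC4, 34.6 and 25.2 RPM with PABPC1, and 37.6 and 31.8 RPM with IgG. PSMC1 was not called against IgG, with ratios of 1.80 (0.880 to 4.27) for PABPC4 and 0.852 (0.349 to 2.28) for PABPC1. All 6 ATPase ratios of PABPC4 over IgG lay between 1.55 and 3.49 on library totals, on which the median of all genes was 1.96.

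The 11 non-ATPase genes held the largest share of reads of any role, at 757 and 723 RPM with PABPC4, 564 and 591 RPM with PABPC1, and 353 and 424 RPM with IgG. PSMD7, described above, was the single one called. PSMD4, the ubiquitin receptor RPN10, had 148.2 and 134.3 RPM with PABPC4, 86.4 and 90.1 RPM with PABPC1, and 52.6 and 84.9 RPM with IgG. PSMD2, the scaffold RPN1, had 128.2 and 129.6 RPM with PABPC4, 48.4 and 104.5 RPM with PABPC1, and 82.7 and 74.3 RPM with IgG. PABPC4 was highest in both genes, and the PABPC1 libraries of PSMD2 spanned both IgG libraries. The PABPC4 over IgG ratio was 2.14 (1.27 to 3.88) for PSMD4 and 1.63 (1.01 to 2.80) for PSMD2, neither called in the authors' deposited table. PSMD3, the lid subunit RPN3, had 62.3 and 65.4 RPM with PABPC4, 44.9 and 54.0 RPM with PABPC1, and 67.7 and 84.9 RPM with IgG. Both IgG libraries lay above both RIPs in this gene, with 65.4 RPM in PABPC4 B nearest to 67.7 RPM in IgG A.

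Assembly chaperones of the proteasome bind intermediates and leave the finished particle. The 7 genes summed to 88.2 and 115.3 RPM with PABPC4, 76.1 and 100.9 RPM with PABPC1, and 75.2 and 53.1 RPM with IgG, and none was called in either deposited table. PSMG1, a chaperone of the alpha ring, had 37.6 and 38.0 RPM with PABPC4, 38.0 and 39.6 RPM with PABPC1, and 45.1 and 10.6 RPM with IgG. PSMG4 had 12.9 and 38.0 RPM with PABPC4, 6.92 and 10.8 RPM with PABPC1, and 0 and 10.6 RPM with IgG. The PABPC4 libraries of PSMG4 differed from each other by more than PABPC4 A did from PABPC1, on 11 and 32 reads.

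Activators open the core in place of the regulatory particle. PSME1, a subunit of the PA28 activator, had 187.0 and 154.5 RPM with PABPC4, 93.4 and 100.9 RPM with PABPC1, and 52.6 and 74.3 RPM with IgG, in 3 pairs without overlap. Its ratio of PABPC4 over IgG was 2.77 (1.63 to 5.14, adjusted p = 0.00363 in the authors' deposited table). On nuclear totals this ratio was 1.41, not called. PABPC1 over IgG was 1.58 (0.864 to 3.07) on library totals, not called. The PABPC4 call was kept without IgG library B (3.25) and lost without IgG library A (2.30). PSME4, the PA200 activator, had 64.7 and 91.5 RPM with PABPC4, 62.2 and 61.2 RPM with PABPC1, and 37.6 and 10.6 RPM with IgG. PSME4 ratios were 2.96 (1.32 to 8.20) for PABPC4 and 2.34 (0.974 to 6.80) for PABPC1, not called. PSME2, PSME3 and the inhibitor PSMF1 had PABPC4 over IgG ratios between 1.63 and 3.05, none called.

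**Figure D3:**
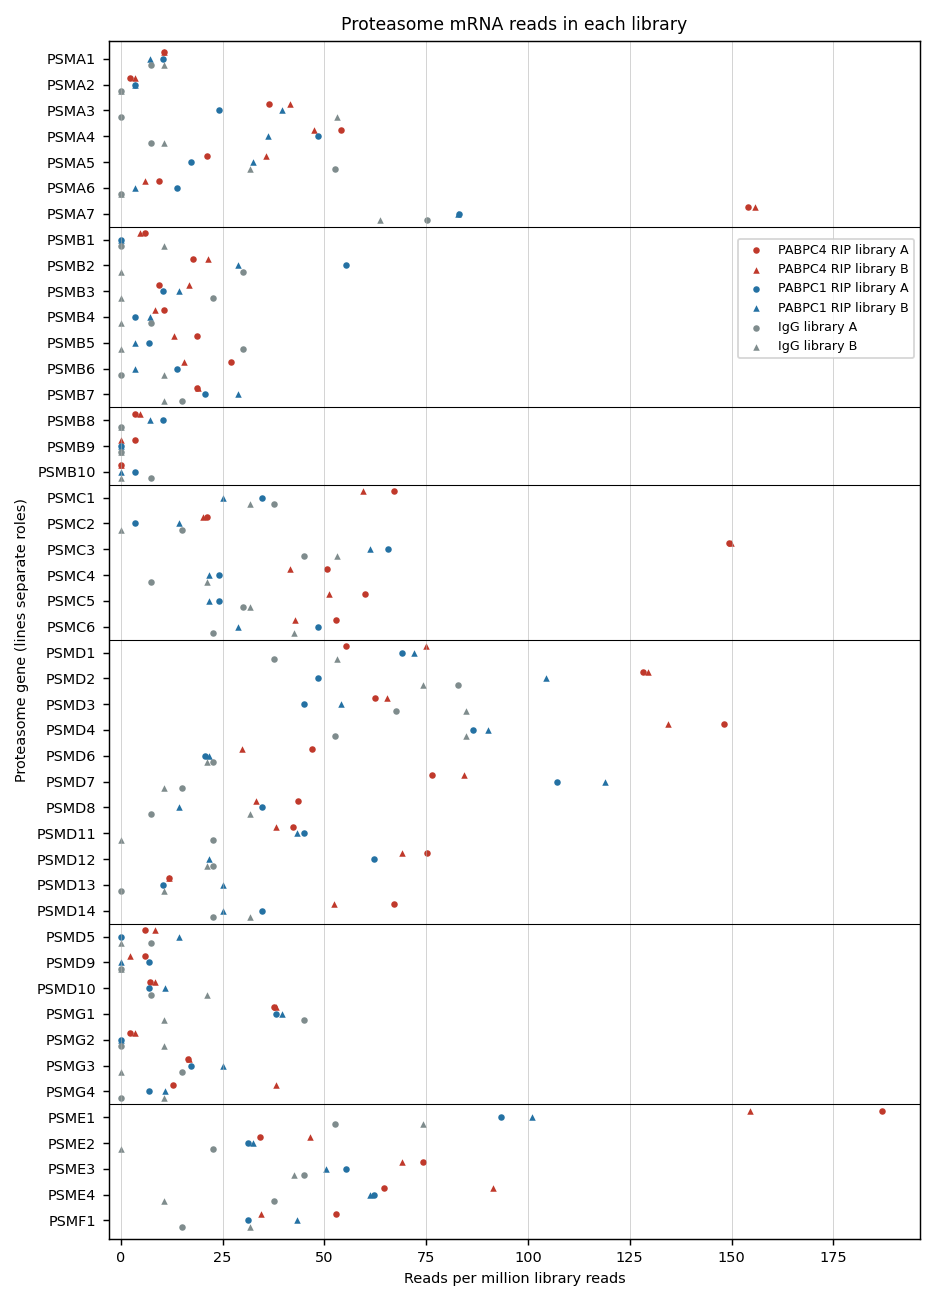
Reads per 1000000 library reads (x axis) of the 46 proteasome genes with a read, in PABPC4 RIP (red), PABPC1 RIP (blue) and IgG (grey), with 1 symbol per library (circle A, triangle B) and lines between the roles. PSMD7 has 76.4 and 84.4 in the PABPC4 libraries and 107.2 and 118.9 in the PABPC1 libraries, while PSMA7, PSMC3 and PSME1 are higher in both PABPC4 libraries.

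Levels compared between genes need the gene's length, which the recovery gave as 1179 to 10418 nucleotides. In RPKM, which divides RPM by the length in kilobases, PSME1 was highest of all 48 with PABPC4 (95.9) and with PABPC1 (54.5), and PSMA7 highest with IgG (39.7). PSMD7 averaged 29.4 RPKM with PABPC4, 41.3 with PABPC1 and 4.68 with IgG. These are means of 2 libraries without a test.

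PABPC4 was then compared with PABPC1 directly, by limma voom scaled to the median gene, over the 7986 genes that reached 10 reads in 2 or more libraries. The 3 groups shared 1 estimate of the spread. Of the 48 genes, 33 passed the filter, 12 of them through the PABPC4 libraries alone, which are the deepest. Counts over the 33 therefore describe the better covered genes, and the filter favours genes with more reads in PABPC4. In this fit 2 of 33 proteasome genes were lower in PABPC4 than in PABPC1, against 2.25% of all genes, and 0 were higher, against 2.15%. At an unadjusted p under 0.05, 4 were lower and 1, PSMC3, higher. The share of all genes at that cut was not counted, so these 2 counts are a description only. Limma-trend called 0 proteasome genes in either direction, but of all 7986 genes it called only 0 higher and 1 lower.

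PSMD7 was lower in PABPC4 than in PABPC1, at a log2 difference of -0.98 (95% interval -1.44 to -0.51, limma adjusted p = 0.00695). PSMB2 differed by -1.52 (-2.39 to -0.66, limma adjusted p = 0.0287), on 33 PABPC4 reads and 24 PABPC1 reads. Without PABPC1 library A or B, which left 1 library in that group, neither was called, and few of all genes were. The differences were then -0.99 and -0.97 for PSMD7 and -1.02 and -2.05 for PSMB2. Scaled to library totals, PSMD7 (-0.50) and PSMB2 (-1.07) kept their sign and were not called. The same scaling called PSMA7, PSMC3, PSMC5, PSMD2 and PSME1 higher in PABPC4, and 1112 of all 7986 genes. On that scaling the median of all genes itself lay at 0.45. With either PABPC4 library left out, which cut the genes tested, the difference of PSMC3 was 0.79 in both cases.

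Direct differences are given by role as a description, with no test of roles against each other. All 6 ATPase genes were in the fit, from -0.17 (PSMC6) to 0.73 (PSMC3), but PSMC2, PSMC4 and PSMC5 reached 10 reads in the PABPC4 libraries alone. The log2 value of PSMC3 was 0.73 (0.21 to 1.26, limma adjusted p = 0.113). The 11 non-ATPase genes ranged from -1.03 (PSMD13) to 0.47 (PSMD14, the deubiquitinase), and the 5 activator and inhibitor genes from -0.30 to 0.32. Of the beta ring 4 genes were in the fit, from -1.52 (PSMB2) to 0.79 (PSMB5). Of the alpha ring 4 were, from -0.34 to 0.41, and of the chaperones 3, from -0.88 to 0.65 (PSMG4). Through the PABPC4 libraries alone also passed PSMB5, PSMB6 and PSMB7 of the beta ring, and the chaperones PSMG3 and PSMG4. So did the non-ATPase genes PSMD6 and PSMD13, PSMA5 of the alpha ring, and PSME2. PSMB5 had 27 PABPC4 reads against 3 PABPC1 reads, and PSMG4 43 against 5, so their upper values depend on that filter. The median over the 33 was -0.07, with 16 above 0 and 17 below, and that of all genes -0.03. Intervals excluded 0 for 5 genes, the 2 called ones and PSMC3, PSMB7 and PSMD1, the last 3 not called. Such intervals were not counted over all genes. The 15 genes outside the fit included all 4 immunoproteasome and thymoproteasome genes.

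**Figure D4:**
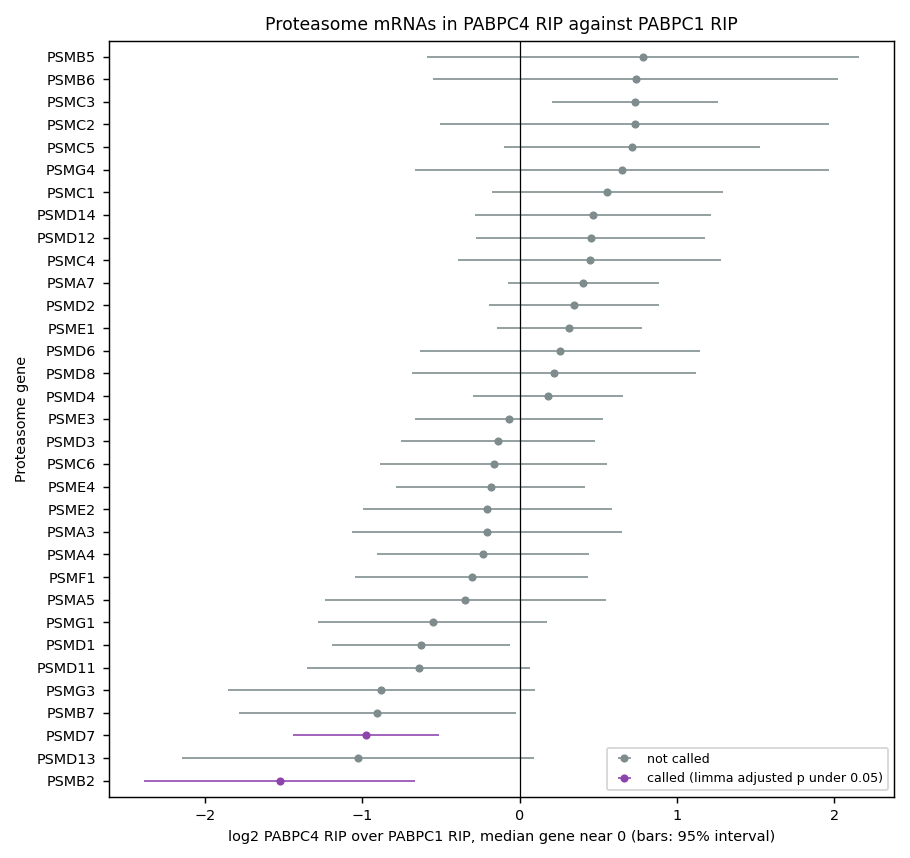
Log2 of PABPC4 RIP over PABPC1 RIP from limma voom (x axis) for the 33 proteasome genes in the fit, with 95% intervals as bars and the 2 genes with an adjusted p under 0.05 in purple. The genes spread on both sides of 0, from PSMB2 (-1.52) to PSMB5 (0.79, interval -0.59 to 2.16). PSMB5 passed the read filter through the PABPC4 libraries alone. Intervals exclude 0 for 5 of 33 genes, and such intervals were not counted over all genes.

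Genes that work with the proteasome were counted from lists of partners and of shuttle factors. In the authors' deposited table for PABPC4 over IgG, 3 of 16 proteasome partners were called higher and 1 of 10 shuttle factors, and 0 lower, against 5.54% of all genes with a p-value higher and 13.5% of those with at least 20 summed reads. NFE2L2, the stress-responsive relative of NFE2L1, had a ratio of 3.46 (2.0 to 6.57), on 335 PABPC4 reads and 13 IgG reads. SEM1, a small lid subunit, had a ratio of 3.09 (1.65 to 6.53). NFE2L1, the factor that raises proteasome gene transcription, stood at 1.66 (1.27 to 2.21). RAD23B, which carries ubiquitinated proteins to the proteasome, stood at 1.48 (1.14 to 1.95). These 4 were the ones called, on library totals. The median of all genes with at least 20 summed reads was itself 1.96 on these totals for PABPC4 over IgG. The ratios of NFE2L2 and SEM1 lay above that median and those of NFE2L1 and RAD23B below it. The calls of NFE2L1 and RAD23B thus do not place these 2 mRNAs above the median gene.

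For PABPC1 over IgG, 0 genes of these lists were called in the authors' deposited table, with 2 of the partners, DDI2 and NFE2L2, higher at an unadjusted p under 0.05 and 0 of the shuttle factors. NFE2L2 had a PABPC1 over IgG ratio of 2.19 (1.20 to 4.31). DDI2, the protease that activates NFE2L1, had one of 1.86 (1.09 to 3.36). The direct fit of PABPC4 against PABPC1 held 15 partners and 10 shuttle factors, and limma called 0 of them. DDI2, lower in PABPC4 at -0.45 (log2, limma adjusted p = 0.231), was the single one with an unadjusted p under 0.05. Shares of all genes at the unadjusted cut were not counted in either comparison.

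Several proteasome genes share their locus name with an antisense transcript or their sequence with a pseudogene, and the sources used here do not say whether strand was used in counting. PSMA3-AS1 had 101 PABPC4 reads, 20 PABPC1 reads and 7 IgG reads, more than PSMA3 itself, with 66 PABPC4 reads, 18 PABPC1 reads and 5 IgG reads. PSMD5-AS1 had 37 PABPC4 reads and PSMD5 12, and PSMD10P1 had 14 PABPC4 reads and PSMD10 13. Values of PSMA3, PSMD5 and PSMD10 are uncertain to that extent. None of the 5 genes called above has a partner of this kind, by name, with a read in these libraries.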

How the data were processed

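RIP-seq, RNA immunoprecipitation with sequencing, was analysed from 2 tables of the authors' own comparisons, which list 58302 genes each. The authors deposited, per the file headers, a fold as a linear ratio (RIP divided by IgG), a p-value and its Benjamini-Hochberg adjustment. The submitters' processing notes list featureCounts 2.0.1, the aligners STAR 2.7.10a and Bowtie2 2.4.1, and hg38 (GRCh38), without saying what each was used for. Of columns with values of single libraries 0 were present.

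The deposited p-value was found from its values to equal a Yates-corrected chi-square test on reads summed over libraries, and the fold a ratio of mean RPKM with 0.005 added to the IgG mean. Whole reads were recovered by matching both (scipy 1.17.1), for 17561 of 17565 genes with a p-value in the PABPC1 table and 21451 of 21455 in the PABPC4 table. Both tables gave the same IgG reads in 14455 of 14455 genes, so the same 2 IgG libraries served both. Implied gene lengths were whole (within 0.001 nucleotides) in 2532 of 2532 genes with 1 IgG read, and in 0 with totals shifted by 1 read. Simulated data were built with the same formulas for fold and p-value, from genes that had already been solved. In them 20272 of 20272 sums were right. Library sets were returned for 20139 of these 20272 genes, and all 20139 were right. This checks the arithmetic of the recovery, not the formulas themselves. All 48 proteasome genes had 1 solution.

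The calls against IgG are the deposited adjusted p-values under 0.05. PABPC4 was compared with PABPC1 by limma 3.58.1 (voom, R 4.3.3) with median-of-ratios scaling, a minimum of 10 reads in 2 or more libraries, and Benjamini-Hochberg adjustment over 7986 genes, with 3 residual and 33.3 prior degrees of freedom. On simulated reads with 7737 genes this fit called 3 of 92 genes changed by 1 (log2), 38 of 95 changed by 2 and 0 of 7550 unchanged. The spread between simulated libraries was assumed, the same in all groups, and not estimated from these libraries. These counts hold for that spread alone and are not error rates of the fit to the real reads. Named genes are all called ones, the 2 with most reads in each role, and those with 0 reads. The proteasome genes, lists and tests were chosen with earlier results of these data known. A further list of related genes is not reported here. Alternatives were Fisher's exact test, other totals and read filters, limma-trend, and each library left out. Replicates of an antibody number 2, and PCR reads are not independent molecules, so counting intervals are too narrow to that extent.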

Additional observations from a re-analysis of the deposited data

Results flagged for a closer look

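In PABPC4 against PABPC1, 2 proteasome genes differed between the 2 antibodies by the test of the difference itself (limma voom). PSMB2 differed by -1.52 (log2), with 15 and 18 reads in the PABPC4 libraries and 16 and 8 in the PABPC1 libraries. PSMD7 differed by -0.98 (log2), with 65 and 71 reads in the PABPC4 libraries and 31 and 33 in the PABPC1 libraries. Antibody and overexpressed protein cannot be told apart in either.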

How the results depend on the processing

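No paired analysis was possible because the recovered libraries carry no replicate numbers. For PABPC4 over IgG, 4 proteasome genes were called higher in the deposited table. Fisher's exact test called 8 (1559 of all 21451 genes), nuclear totals 0 (110 of all genes) and median-of-ratios scaling 0 (157 of all genes). Limma voom over libraries, added after seeing the data, called 0 higher (134 of all 7986 genes) and 2 lower (173 of all genes). With a library left out, 1 remained in its group, and the set of called proteasome genes changed in each case. For PABPC1 over IgG the 1 call became 0 under nuclear totals, median-of-ratios and limma voom. That call was lost without either IgG library and kept without either PABPC1 library. For PABPC4 over PABPC1 the 2 lower and 0 higher calls became 0 lower and 5 higher on library totals. Those totals move the median of all genes, and on them 1112 of all 7986 genes were called higher and 53 lower. The lower calls among proteasome genes became 1 with at least 5 reads (109 of all 10219 genes) and 0 with at least 1 read (99 of all 17365). With limma-trend they became 0 (1 of all 7986). Leaving a library out of the direct comparison left 1 in its group, and the calls among proteasome genes depended on which library it was. Neither PSMD7 nor PSMB2 changed sign in the direct comparison under any of these settings, and no called ratio over IgG crossed 1. The IgG libraries limit both comparisons against IgG: 26 of 48 genes had at most 3 IgG reads.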
